A study of Drosophila melanogaster with 4 samples.

Results

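Genes of the cytosolic ribosome and of the factors that drive it were followed in the heads of Drosophila melanogaster given ethosuximide in their food. Ethosuximide is an antiepileptic drug that is known to inhibit T-type calcium channels. The set was taken by name, as every gene on the arrays with a current symbol starting with RpL, RpS, eIF or eEF (the symbols sta and sop were searched for and named no spot). It held 53 genes, 23 counted as ribosomal proteins and 30 as translation factors by these prefixes, among 6692 named genes. The 23 include RpL24-like, whose yeast counterpart is not a ribosomal protein, and the similarly named RpL7-like and RpLP0-like. A value on at least 1 array was found for 33 of the 53, namely 12 ribosomal proteins and 21 factors, and a value on 3 or more arrays for 15, namely 8 and 7.

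The ribosome joins a small and a large subunit, each a scaffold of ribosomal RNA dressed with proteins named RpS and RpL. Initiation factors (eIF) bring messenger RNA, initiator tRNA and the subunits together, and elongation factors (eEF) carry the ribosome along the message. The transcripts of these genes are abundant in most tissues, and their translation is a known target of the TOR and S6 kinase pathway.

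Flies were unmated Oregon-R wild-type males, 10 to 11 days old and kept at 30 per vial. For 3 days one group ate food with 3.48 mg/ml ethosuximide and the other ate normal food, and flies of both groups had been sexed under diethyl ether after emergence. Each of 4 spotted cDNA arrays compared 1 pool of heads from drug-fed flies with 1 pool from flies on normal food, so each array was 1 biological replicate. The drug sample carried the dye Cy5 on arrays 1 and 2 and Cy3 on arrays 3 and 4. Pools of whole heads mix many cell types, and a change in the share of a cell type cannot be told apart from a change of RNA per cell. Head markers were partly covered, with values for 4 of 5 photoreceptor, 3 of 3 neuronal and 2 of 2 glial genes on the arrays, while the defining genes ninaE, elav and repo were not named among the probes used here. Of the 12 marker genes of any cell type measured on 3 or more arrays, from photoreceptors to gut and male reproductive tissue, 0 passed the test used below. An unadjusted p under 0.05 was found for 4 of them, or 33.3% against 12.0% of all units. These were chp of photoreceptors (-0.45), Gs2 of glia (-0.35), Act88F of muscle (-0.43) and ocn of male reproductive tissue (0.44). The other measured genes of these lists were mixed. The photoreceptor gene inaD (-0.34) and the muscle gene Mlc2 (-0.21) lay below 0. Arr1 (0.27) and trp (0.08) of photoreceptors and moody of glia (0.59) lay above it, trp and moody on 2 arrays only. The ratios of the 4 markers, on the centred scale explained below, are close in size to those of the leading members, and their part in the results was not tested.

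Every value below is a log2 ratio of drug over normal food, centred so that the median of all units measured on 3 or more arrays is 0 on each array. A unit is a gene, with its clones averaged, or a clone without a single gene name. The medians removed were 0.74, 0.16, -0.24 and -0.63 on arrays 1 to 4. The deposited columns do not state which dye is the numerator. They were read as Cy5 over Cy3 and turned on arrays 3 and 4, and this direction is unsettled: if Cy3 were the numerator, every sign would change, and if the columns had been turned before deposit, the signs on arrays 3 and 4 alone would change. Precision is limited throughout by the number of arrays.

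Ribosomal protein transcripts, where they had a value at all, had one on more arrays than most genes did. Of the 12 with a value, 8 (66.7%) had one on 3 or more arrays, against 7 of 21 factors (33.3%) and 507 of 3720 named genes (13.6%). Of all genes in the annotation, 34.8% of the ribosomal proteins, 23.3% of the factors and 7.58% of all named genes reached 3 arrays. No value on any array was found for 11 of the 23 ribosomal proteins and 9 of the 30 factors, against 2972 of the 6692 named genes. Among the 11 was RpL32, a large-subunit protein whose transcript is a common reference in fly quantitative PCR. It was named for 10 clones, more than any other gene in the annotation, and none of their spots had a deposited value. Whether these clones are control spots that were left out is not given in the sources used here, so the missing values say nothing of its level. The number of genes with a value fell from array 1 to array 4 over the whole series. It was 3047, 1830, 575 and 404 of the 3720 named genes on arrays 1 to 4. The factors fell likewise, at 19, 10, 6 and 5 of the 21, and the ribosomal proteins less, at 12, 8, 8 and 8 of the 12.

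**Figure D1:**
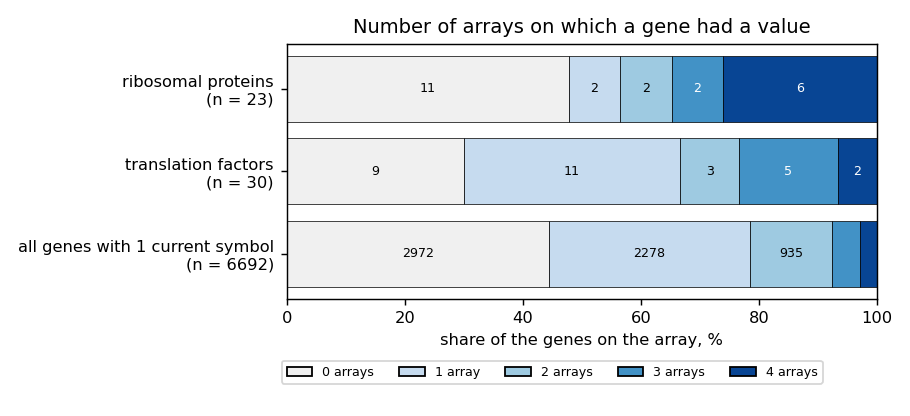
Bars show, for ribosomal proteins (n = 23), translation factors (n = 30) and all named genes (n = 6692), the share of genes in percent that had a deposited value on 0, 1, 2, 3 or 4 arrays, with gene counts printed in the wider segments. The dark segments, 3 and 4 arrays, are wider for the ribosomal proteins and factors than for all genes.

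The question put to these genes was whether their transcripts differed between heads of drug-fed flies and heads of flies on normal food. None of the 15 genes measured on 3 or more arrays passed limma's test at an adjusted p under 0.05, where 1.34% of the 967 units tested did. RpL23, eEF5, eEF1delta and eIF3i had the largest ratios, from 0.36 to 0.44, or 1.28-fold to 1.36-fold, and each was above 0 on every array that measured it. Their adjusted p in limma lay between 0.277 and 0.384. These 4 genes were the members with an unadjusted p under 0.05, a share of 26.7% against 12.0% of all units tested (6.83% with a ratio above 0 and 5.17% below). With arrays 1 to 4 left out in turn, 2, 1, 5 and 4 members had such a p, beside 7.65%, 9.0%, 11.5% and 13.0% of all units, so that without array 2 the members' share was below that of all units. In a t test without limma's moderation, 1 of the 15 members had an unadjusted p under 0.05. Among the 967 units, 59 above 0 and 43 below had such a p in that test. Across the 15 genes the 95% intervals of this fit, centred and read as Cy5 over Cy3, reached from -0.64 to 0.77. None of these included a doubling or a halving. That bound holds for this setting only. Uncentred and with no column turned, the ratio of RpL17 itself was 0.86.

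Of the 8 ribosomal proteins, 6 belong to the large subunit. RpL23, which lies on the face of the large subunit that meets the small one, had ratios of 0.28, 0.56 and 0.48 on arrays 1 to 3 and no value on array 4. Its mean was 0.44 ± 0.14 (SD, n = 3; limma adjusted p = 0.277), and the lowest of its 3 arrays was 0.28. Its duplicate spots differed by 0.20, 0.12 and 0.14, less than its distance from 0 on each array.

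RpL17, a protein that lines the exit tunnel for the growing chain, gave 0.42 and 0.35 on arrays 1 and 2 and -0.50 and -0.39 on arrays 3 and 4. The mean of -0.03 ± 0.48 (SD, n = 4; limma adjusted p = 0.959) therefore joined 2 pairs of arrays that lay on opposite sides of 0 and did not overlap. The pairs are those of the dye orientations. With a dye term in limma's model, the dye effect of RpL17 was 0.41 ± 0.11 (SE; unadjusted p = 0.00282, adjusted p = 0.105), and for 14.5% of all units the unadjusted p of the dye effect was under 0.05. If the columns had been turned before deposit, RpL17 would be the steadiest of the set, at 0.41 ± 0.06 (SD, n = 4; limma adjusted p = 0.4). Dye and drug cannot be told apart here without the numerator.

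RpL39, another tunnel protein, ran the other way, at -0.35 and -0.18 on arrays 1 and 2 and 0.05 and 0.18 on arrays 3 and 4. RpL15 gave 0.08, 0.02, -0.10 and -0.20, again with the sign following the dye, though all 4 arrays lay close to 0. Opposite signs in the 2 orientations were thus seen for 3 of the 8 members on 4 arrays, against 18.9% of all units on 4 arrays. RpL29 was near 0 on 3 arrays (-0.03, -0.09 and 0.05 on arrays 1, 3 and 4) and at 0.34 on array 2. RpL27 gave 0.36, 0.10 and -0.14 on arrays 1, 3 and 4. The means of these 4 genes, between -0.08 and 0.11, were smaller than their own SDs over arrays, which ran from 0.12 to 0.25.

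Of the small subunit, RpS7 and RpS15Ab were measured on all 4 arrays. RpS7 was above 0 on each, at 0.44, 0.14, 0.29 and 0.04, with a mean of 0.23 ± 0.18 (SD, n = 4; limma adjusted p = 0.451). RpS15Ab gave 0.24, -0.05, 0.27 and 0.30, with a mean of 0.19 ± 0.16 (SD, n = 4; limma adjusted p = 0.535). It joined 2 clones, of which 1 was above 0 on every array, at 0.25, 0.27, 0.10 and 0.17. The other gave 0.23, -0.37, 0.43 and 0.44, so the clones differed in sign on array 2. On array 3 the spots of that second clone stood 1.45 apart. RpS15Ab has a near-identical paralogue, RpS15Aa, and spotted cDNA may bind transcripts of both.

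**Figure D2:**
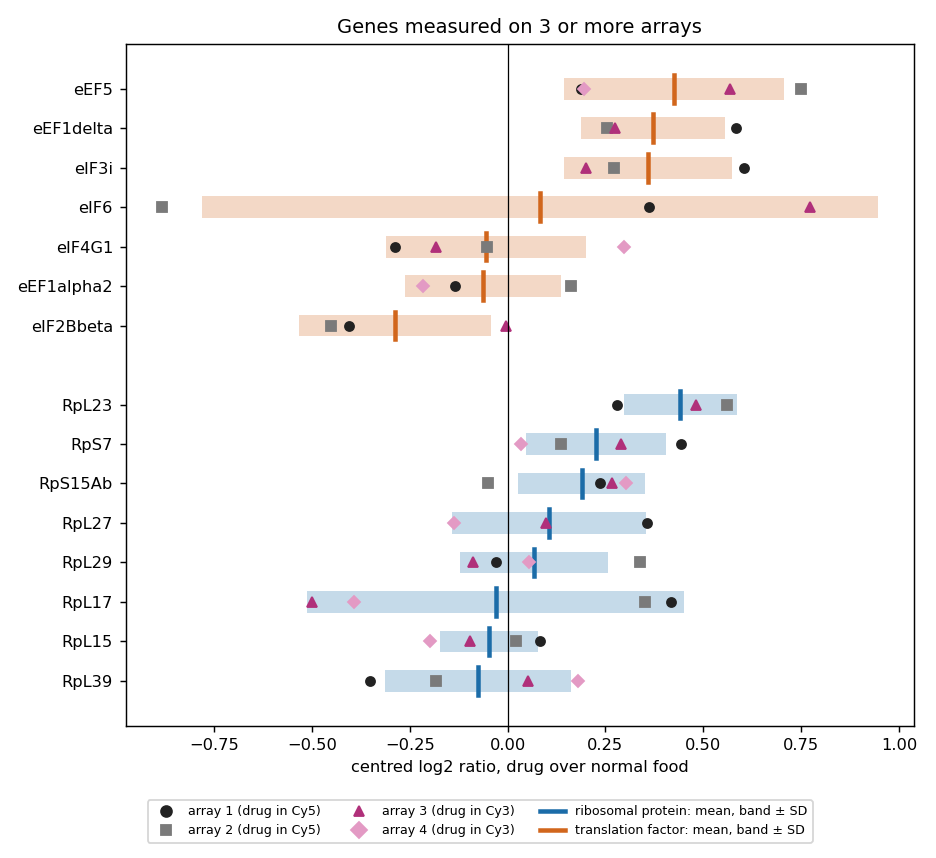
Each symbol is the centred log2 ratio of drug over normal food on 1 array for the 8 ribosomal protein and 7 translation factor genes measured on 3 or more arrays, with the mean as a vertical line and ± SD over arrays as a band. RpL23, RpS7, eEF5, eEF1delta and eIF3i lie above 0 on every array that measured them, eIF2Bbeta lies below 0 on each under the reading used, and RpL17 splits by dye orientation.

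Among the elongation factors, eEF5 had the largest mean. It is the fly eIF5A, the protein that carries hypusine and eases the joining of difficult amino acids such as runs of proline. Its ratios were 0.19, 0.75, 0.57 and 0.20 on arrays 1 to 4, with a mean of 0.43 ± 0.28 (SD, n = 4; limma adjusted p = 0.277). Arrays 2 and 3 were high and arrays 1 and 4 low, and the spots on array 2 differed by 0.67. eEF1delta, a subunit of the exchange factor that recharges eEF1A with GTP, gave 0.58, 0.25 and 0.27 on arrays 1 to 3, with a mean of 0.37 ± 0.18 (SD, n = 3; limma adjusted p = 0.365). eEF1alpha2, one of the fly's eEF1A proteins that deliver charged tRNA to the ribosome, gave -0.13, 0.16 and -0.22 on arrays 1, 2 and 4, on both sides of 0.

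The initiation factors went different ways. eIF3i, a subunit of the eIF3 complex that binds the small subunit, gave 0.60, 0.27 and 0.20 on arrays 1 to 3, with a mean of 0.36 ± 0.21 (SD, n = 3; limma adjusted p = 0.384). eIF2Bbeta, part of the complex that reloads eIF2 with GTP, gave -0.41, -0.45 and -0.0052, with a mean of -0.29 ± 0.25 (SD, n = 3; limma adjusted p = 0.451). Under the reading used here it was the only member of the 15 below 0 on every array that measured it, and array 3 was all but at 0. With no column turned, RpL39 would take that place, at -0.19 ± 0.12 (SD, n = 4), and eIF2Bbeta would lie just above 0 on array 3.

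eIF4G1, the scaffold that links the cap-binding protein to the small subunit, gave -0.29, -0.05, -0.18 and 0.30, with array 4 on the other side from the rest. Its 2 clones differed in sign on array 2, at 0.19 and -0.30. eIF6, which keeps the free large subunit from joining too early and acts in its assembly, was the least steady member. It gave 0.36, -0.88 and 0.77 on arrays 1 to 3, with a mean of 0.08 ± 0.86 (SD, n = 3; limma adjusted p = 0.933). The duplicate spots on each array had the same sign, so the spread lay between arrays.

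As classes the ribosomal proteins and the factors did not stand far apart. The median ratio was 0.09 over the 8 ribosomal proteins and 0.08 over the 7 factors, against 0.0045 over all 967 units. Ratios were above 0 for 5 of 8 and 4 of 7, or 60.0% of both classes, against 51.5% of all units. With no column turned they were above 0 for 6 of 8 and 4 of 7 (66.7%), against 47.3% of all units. By array, the median of the ribosomal proteins was 0.26, 0.14, 0.07 and 0.04 on arrays 1 to 4, and that of the factors 0.19, 0.16, 0.24 and 0.20. Both medians of these genes thus lay above the centre of each array under the reading used here, with that of the factors on array 4 resting on 3 genes. Under the other reading the medians on arrays 3 and 4 would lie below the centre. Ribosomal proteins minus factors came to 0.07, -0.02, -0.16 and -0.16, a mean of -0.07 ± 0.11 (SD, n = 4), which is smaller than its SD over arrays. With the genes on 1 or 2 arrays included, that difference was 0.07, 0.11, -0.16 and 0.26, with a mean of 0.07 ± 0.18 (SD, n = 4), of the opposite sign and again smaller than its SD. In that larger set the factor median on array 4 was -0.22 over 5 factors, below the centre, where all measured units had 0.04.

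Among genes on 3 or more arrays, the SD over genes within an array was 0.27, 0.26, 0.30 and 0.24 for the ribosomal proteins on arrays 1 to 4, against 0.37, 0.34, 0.41 and 0.39 for all units measured on 3 or more arrays. For the factors it was 0.41, 0.53, 0.35 and 0.27. These SDs rest on 7 or 8 ribosomal proteins and 3 to 7 factors per array, and the difference was not tested. Over every measured gene the order turned on array 1, where the SD was 0.55 for 12 ribosomal proteins, RpS5b among them, and 0.45 for all units. One sign on every array that measured the gene was found for 6 of the 15 members (40.0%), 5 above 0 and 1 below, against 30.6% of all units. With no column turned it was 3 of the 15 (20.0%), against 25.4% of all units, so the order of these shares depends on the reading.

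**Figure D3:**
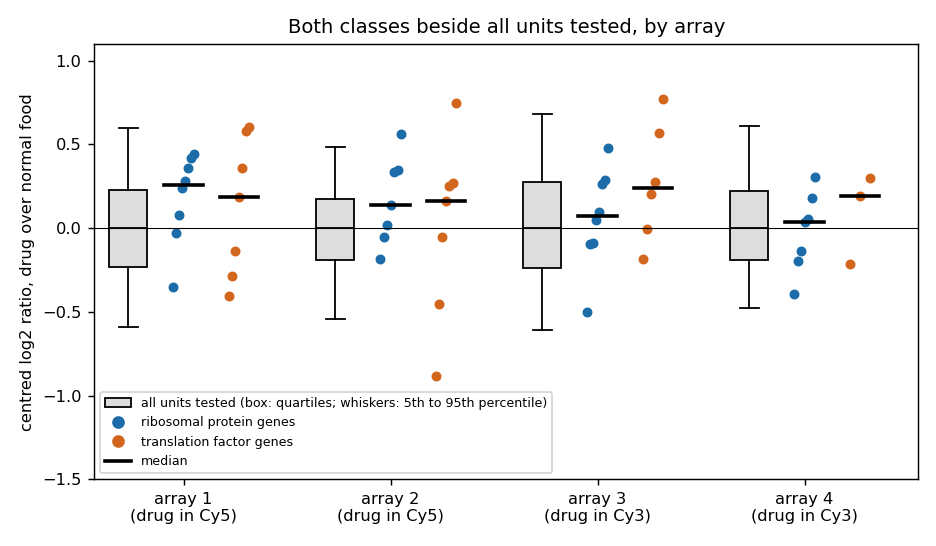
Points are genes of either class with a value on that array (8, 7, 8 and 7 ribosomal proteins and 7, 7, 6 and 3 factors on arrays 1 to 4), on a scale of centred log2 ratios, and bars are their medians. Gray boxes give the quartiles of all units tested and whiskers their 5th to 95th percentile. The members lie mostly within the whiskers, with medians from 0.04 to 0.26.

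Under the other reading of the columns, in which none is turned, the 4 leading genes came nearer to 0. RpL23 was then at 0.12, eEF5 at 0.04, eEF1delta at 0.19 and eIF3i at 0.22, and RpL17 became the one member with an unadjusted p under 0.05, a share to be set beside 8.58% of all units. In that fit 0 of the 967 units passed (0.0%). On the deposited values without centring, RpL23 stood at 0.66, eEF1delta at 0.59, eIF3i at 0.58 and eEF5 at 0.43. The rise of RpL23, eEF1delta and eIF3i is arithmetic. They had no value on array 4, whose median of -0.63 was the lowest of those that centring removed. eEF5, measured on all 4 arrays, hardly moved. Without centring none of the 15 passed (0.414% of units did). If both changes were made together, 3.72% of units passed, all above 0, and RpL17 was among them at 0.86 (limma adjusted p = 0.0328), in a fit where 95.1% of all units had a ratio above 0.

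**Figure D4:**
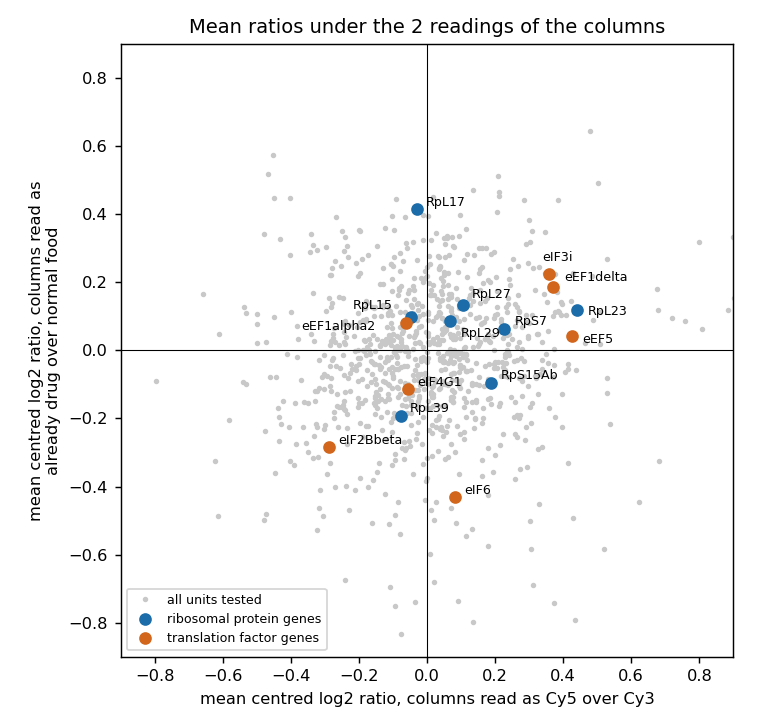
Each point is a unit measured on 3 or more arrays, at its mean centred log2 ratio with the columns read as Cy5 over Cy3 (x axis) and read as already drug over normal food (y axis). The 10 units beyond 0.9 on an axis are not drawn. RpL23, eEF5, eEF1delta and eIF3i lie to the right, while RpL17 stands high on the y axis and near 0 on the x axis.

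A further 4 ribosomal proteins and 14 factors had values on 1 or 2 arrays only and entered no test. RpLP0, the base of the stalk that recruits elongation factors, gave 0.64 and 0.49 on arrays 1 and 2, above 94.2% and 96.7% of all units on those arrays. RpL24-like, whose yeast counterpart is an assembly factor and not a ribosomal protein, gave 0.67 and 0.30 on arrays 1 and 4. RpS5b, a paralogue of RpS5a known mainly from the germ line, had the lowest value of all members, -1.36 on array 1. Its spots there read -1.59 and -1.13, and only 0.652% of units on that array lay lower. RpL3, which sits at the site of peptide bond formation, was at 0.07 on array 1, with spots on both sides of 0.

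Of the 3 factors on 2 arrays, eIF3g1 gave 0.23 and 0.22 on arrays 1 and 2 and eIF4G2 0.06 and 0.10. eIF3f1 gave -0.21 and -0.25 on arrays 2 and 4, above 43.3% and 16.8% of all units on those arrays. Arrays 2 and 4 carried opposite dyes, and with no column turned the mean of eIF3f1 was 0.02. The 11 factors on 1 array ran from -0.45 for eIF4B, a helper of the eIF4A helicase, to 0.87 for eIF3d2, with 5 above 0 and 6 below. Of these eIF4A was the only one measured on array 4, at -0.30, and the other 10 came from array 1. The duplicate spots behind the values of eIF2beta and eIF2A stood 1.61 and 1.23 apart, on either side of 0.

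**Figure D5:**
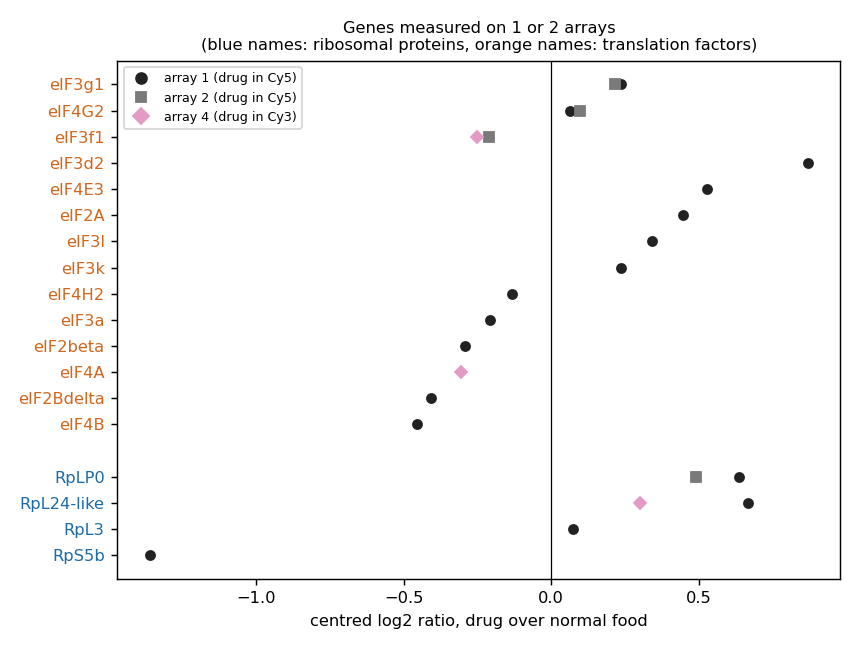
Symbols give the centred log2 ratio of drug over normal food for the 4 ribosomal proteins (blue names) and 14 factors (orange names) measured on 1 or 2 arrays. RpS5b stands apart at -1.36, and most values come from array 1.

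The rest of the translation apparatus, as listed here, was covered about as thinly as named genes in general. Lists of mitochondrial ribosomal proteins, tRNA synthetases, release factors, cap and poly(A) regulators, the TOR and S6 kinase pathway, eIF2 kinases, ribosome assembly, nascent chain factors and RNA polymerases I and III held 107 genes. Of these 107, 58 had a value and 8 were measured on 3 or more arrays. Of all named genes in the annotation, 55.6% had a value and 7.58% reached 3 arrays. 0 of the 8 passed, and 1 (12.5%, close to the 12.0% of all units) had an unadjusted p under 0.05. That gene was S6k, the kinase of ribosomal protein S6, at -0.29, -0.40 and -0.42 on arrays 1 to 3, with a mean of -0.37 ± 0.07 (SD, n = 3; limma adjusted p = 0.34).

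Nacalpha, a subunit of the complex that shields nascent chains at the ribosome, gave 0.47, 0.28, 0.49 and -0.07 on arrays 1 to 4, with a mean of 0.29 ± 0.26 (SD, n = 4; limma adjusted p = 0.414). Tctp was at -0.11 ± 0.21 (SD, n = 3). The poly(A)-binding protein gene pAbp, at 0.06 ± 0.14 (SD, n = 4), and crc, the fly ATF4 that eIF2 kinases act through, at -0.08 ± 0.24 (SD, n = 4), lay on both sides of 0 over the arrays. The 3 mitochondrial ribosomal proteins had means of -0.21 for mRpL40, -0.09 for mRpS24 and -0.04 for mRpS29. mRpL40 was steady, at -0.22, -0.16 and -0.24 on arrays 1 to 3 (limma adjusted p = 0.547), and the other two lay on both sides of 0. No tRNA synthetase, release factor, assembly factor or RNA polymerase gene of the lists was measured on 3 arrays. The lists did not hold every related gene. LTV1 (mean 0.16) and mRRF2 (mean 0.16), for example, were measured on 3 or more arrays but not listed.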

How the data were processed

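Per the series' design text, the authors read the slides at a resolution of 10 µm, measured spots with GenePix Pro 6.0 and applied a ratio-based normalization in Acuity 4.0 that ignored spots under 100 in raw intensity. Spots with a bad flag, 3% or more saturated pixels, a regression R2 under 0.6 or a signal-to-noise ratio under 3 were removed. The deposited values, 1 column per array, were taken as log2 ratios from their range on both sides of 0. The labels call them ratio normalized without giving the log base, numerator or centring. The genome build is not given in the sources used here.

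Neighbouring spots were averaged into 13824 clones (7447 of 7447 such pairs with 2 symbols had the same symbol). Of 27648 spots, 15116 had 1 symbol in the platform annotation, 102 several and 12430 none, and 14894 matched a current symbol in RefSeq's Release 6 table. Per array, the mean over a gene's clones was used, and units with values on 3 or more arrays were fitted with limma 3.58.1 in R 4.3.3 (lmFit, eBayes) against 0, two-sided, with Benjamini-Hochberg adjustment over all 967 and a threshold of 0.05. The fit was tested on simulated data. Members, lists and the rule for named genes (every member on 3 or more arrays, the largest ratios among the others, clones that differ in sign, and up to 4 genes per list by lowest p) were chosen with earlier results of these data known. RpL32, eIF2beta and eIF2A were named after their values were seen. Centring was used because genes were measured on different sets of arrays. Background correction and normalization within arrays could not be varied from ratios alone.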

Additional observations from a re-analysis of the deposited data

Results flagged for a closer look

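For 3 of the 8 members measured on all 4 arrays the centred ratios had 1 sign on arrays 1 and 2 and the other on arrays 3 and 4, the dye orientations. This is 37.5% of them, against 18.9% of the 370 units measured on 4 arrays. In limma's fit with a dye term the log2 dye effect, coded 1 for arrays 1 and 2 and -1 for arrays 3 and 4, was 0.41 for RpL17 (adjusted p = 0.105), -0.19 for RpL39 (adjusted p = 0.445) and 0.10 for RpL15 (adjusted p = 0.71), so the difference between the orientations did not pass for any of them. Without the numerator, dye and drug cannot be told apart. In a search for an array lying apart in 11 groups of 4 arrays, 0 stood out, where chance gives about 1 in 20. The groups were the 8 members on 4 arrays, both class medians and the difference of these medians, so they overlap. Members on 3 arrays, eIF6 among them, were not searched. With so few groups, a count of 0 says little.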

How the results depend on the processing

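The count of members that passed was 0 in every alternative except the uncentred values with no column turned, a combination added after seeing the data, where it was 1 (RpL17). Units passing over the whole table numbered 13 in the main setting, 4 without centring, 0 with no column turned (83 at an unadjusted p under 0.05), 36 with both, 28 with a dye term and 0 in the unmoderated test (102 at an unadjusted p under 0.05). Without arrays 1 to 4 in turn they numbered 5, 21, 6 and 7. The ribosomal protein median of 0.09 ranged from -0.0011 on all 4 arrays, where it lay just below 0, to 0.15 on 2 or more arrays, each within its SD over arrays of 0.10 (0.04 to 0.12 with an array left out). The factor median of 0.08 was 0.30 without centring, 0.12 centred on every unit, 0.044 with no column turned, 0.0081 by clone, 0.16 on all 4 arrays, 0.13 on 2 or more arrays, -0.013 with arrays scaled to one spread, and 0.02, 0.32, -0.014 and 0.08 without arrays 1 to 4. Ribosomal proteins minus factors became 0.092 with no column turned. Requiring both spots changed nothing, since every clone of the tested units had both.

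Of 15 member ratios, 5 kept the sign of their mean in every alternative (RpL23, RpS7, eEF5, eEF1delta and eIF3i). All 5 were above 0 on every array that measured them, so leaving an array out could not change their sign. Uncentred and with no column turned, 95.1% of all units were above 0, which favours members with a ratio above 0. eIF2Bbeta, below 0, changed sign in that combination only. The share of all units that kept their sign was not counted. A Cy3 numerator, which would change every sign, was not among the alternatives. With no column turned, the SD over arrays of each of these 5 was larger than its mean. Those SDs ran from 0.31 for RpS7 to 0.56 for eEF5. With no column turned the sign changed for RpL15 (0.10), RpL17 (0.41), RpS15Ab (-0.10), eEF1alpha2 (0.081) and eIF6 (-0.43). Uncentred as well, it changed for RpL39 (0.25), RpL15 (0.54), RpL17 (0.86), eIF2Bbeta (0.093), eEF1alpha2 (0.59), eIF4G1 (0.33) and eIF6 (-0.055). eEF1alpha2 was at 0.024 without centring, and eIF6 at -0.013 with scaled arrays. With 1 array left out, ratios ran from -0.16 to 0.016 for RpL39, -0.091 to 0.002 for RpL15, -0.18 to 0.13 for RpL17, -0.022 to 0.12 for RpL29, -0.020 to 0.23 for RpL27, -0.17 to 0.014 for eEF1alpha2, -0.17 to 0.021 for eIF4G1 and -0.26 to 0.57 for eIF6. The causes were not tested. No paired analysis was possible because each array is its own pair of pools, and the ratio already sets them against each other.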
